A study of Mus musculus with 12 samples.

Results

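The 10 heat shock proteins and chaperones described here, Hspa1a, Hspa1b, Dnajb1, Hsph1, Hsp90aa1, Hsp90ab1, Hspa8, Hspd1, Hspe1 and Hspa5, were chosen by name from the 52636 gene identifiers of the count table, and all 10 passed the filter on low counts among the 14173 genes tested. The measurements were QuantSeq 3′ RNA-sequencing counts, in which reads come from the 3′ ends of transcripts, of CD8+ T cells sorted from AT-3ova tumors, an ovalbumin-expressing mouse mammary carcinoma. The host mice carried the A2AR eGFP reporter, a transgene in which the regulatory sequences of Adora2a, the gene of the adenosine receptor A2AR, drive GFP, on a C57BL/6 background, so every group shares the transgene. There were 4 conditions of 3 libraries each: GFP+ and GFP- cells from non-treated mice, and GFP+ and GFP- cells from mice given anti-PD-L1, an antibody that blocks the ligand of the checkpoint receptor PD-1, at days 14 and 18. All cells were taken at day 21 after subcutaneous injection of 500000 tumor cells. Each library was pooled from 3 mice according to the methods of the study, and libraries are named here by their codes, from KT13 up to KT24. The mice were young to adult, their age being given only as 1 range for all experiments, and the spread between libraries is that between pools.

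Chaperones bind unfolded proteins and help them to fold. In a cell under heat or proteotoxic stress the transcription factor HSF1 binds heat shock elements, repeats of the 3-base unit GAA and its reverse TTC, and switches on the stress-inducible cytosolic chaperones, while related constitutive chaperones are made all the time. The mitochondrial pair Hspd1 and Hspe1 folds imported proteins, and Hspa5 (BiP) works in the endoplasmic reticulum, where it is a classic target of the unfolded protein response. In T cells taken from solid tissue, heat shock genes and immediate-early genes can also be switched on while the tissue is being digested and sorted. The members were grouped from general knowledge into 5 stress-inducible cytosolic genes (Hspa1a, Hspa1b, Dnajb1, Hsph1, Hsp90aa1), 2 constitutive cytosolic genes (Hsp90ab1, Hspa8) and 3 organelle genes (Hspd1, Hspe1, Hspa5).

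Total counts were 11292699 to 19023900 per library, and the lowest count of a member in a library was 670, for Hspa1b in KT21. KT13 (non-treated GFP+) and KT21 (anti-PD-L1 GFP+) stood apart from the rest, with a median Spearman correlation to the other libraries, across genes, of 0.941 and 0.936 against 0.967 to 0.977 for the remaining 10. Main values therefore use all 12 libraries and are set beside those of the 10 without these 2. Mitochondrial genes took 2.51% to 3.35% of counts. The 7 CD8 T cell markers were high in every library (summed level 3867 to 6015 CPM, which are counts scaled to the size of the library), while of the 2 CD4 and regulatory T cell markers Cd4 was at most 0.919 CPM and Foxp3 6.44 to 24.9 CPM. Adora2a was 60.2 to 111 CPM in GFP+ and 19.7 to 34.6 CPM in GFP- libraries, in the direction of the sort.

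RefSeq promoter windows on build GRCm38.p6 were at hand for 7 of the 10 members. The 250 bases before the start of Hspa1a (chr17:34972157-34972406, minus strand, in no annotated exon) are shown because Hspa1a and Hspa1b varied most between libraries. Hspa1b, which lies beside it on the same strand, differs from them at 3 of 250 positions. Capitals mark a heat shock element of 2 units, GAANNTTC or TTCNNGAA, both of which read the same on either strand.
Hspa1a: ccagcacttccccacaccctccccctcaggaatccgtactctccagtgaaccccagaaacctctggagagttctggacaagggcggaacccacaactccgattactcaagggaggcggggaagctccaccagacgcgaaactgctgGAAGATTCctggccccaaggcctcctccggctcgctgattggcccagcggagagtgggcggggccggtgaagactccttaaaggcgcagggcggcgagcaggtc

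Shorter stretches around the matches in the other windows follow, because the members differ in the element they hold, Hspa1b, Hsph1 and Hspe1 a heat shock element and Hspa5 an endoplasmic reticulum stress element (ERSE, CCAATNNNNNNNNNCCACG or its reverse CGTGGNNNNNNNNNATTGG). Capitals mark the matched letters.
Hspa1b (chr17:34959325-34959352, minus strand): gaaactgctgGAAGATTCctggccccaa
Hsph1 (chr5:149636352-149636379, minus strand): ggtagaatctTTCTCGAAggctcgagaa
Hspe1 (chr1:55088054-55088081, plus strand): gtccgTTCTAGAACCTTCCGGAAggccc
Hspa5 (chr2:34772021-34772047, plus strand): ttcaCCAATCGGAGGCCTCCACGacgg

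A heat shock element of 2 units was found in a window of 5 of the 7 members, which have 10 windows. Over all genes, 12.8% of the 32851 windows of 250 bases (27025 genes) held one. The units differ, since a member was counted when any of its windows matched and the background counts windows. The match began 104 bases before the start in both Hspa1a and Hspa1b. Hspd1 and Hspe1 are transcribed away from each other and share 1 stretch with 3 overlapping matches, which include the 3-unit form GAANNTTCNNGAA or TTCNNGAANNTTC found in 0.466% of windows. In Hspd1 they lay in the window of the start at chr1:55087932, and the window of its other start, chr1:55088243, held none. The ERSE of Hspa5 began 65 bases before its start, and 0.113% of windows held one. The stretches printed for Hspe1 and Hspa5 lie in annotated exons, and that of Hsph1 partly does. No match to either motif was found in the 2 windows of Dnajb1. Such a match is a description of the letters, and binding was not measured in these cells.

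Hspa1a (GRCm38 chr17:34969190-34972156) and Hspa1b (chr17:34956436-34959238), which encode the inducible cytosolic HSP70, were the most variable members and were lower in the cells of anti-PD-L1-treated mice, without passing the test in either GFP group. The fitted level of Hspa1a was 0.32 times that of non-treated cells in GFP+ and 0.40 times in GFP- cells. Hspa1a was 400.4 (KT13), 118.8 (KT15) and 362.5 CPM (KT17) in non-treated GFP+ libraries and 388.8 (KT14), 129.7 (KT16) and 371.5 CPM (KT18) in non-treated GFP- libraries. After anti-PD-L1 it was 134.8 (KT19), 83.7 (KT21) and 63.8 CPM (KT23) in GFP+ and 171.2 (KT20), 101.5 (KT22) and 80.6 CPM (KT24) in GFP- libraries. Thus KT13, KT14, KT17 and KT18 lay above all 6 anti-PD-L1 libraries, whereas KT15 and KT16 lay among them, so that the non-treated and anti-PD-L1 groups overlapped. Hspa1b had the same 4 high libraries, with 352.4 (KT13), 437.6 (KT14), 398.5 (KT17) and 424.7 CPM (KT18) against 175.3 CPM in KT15 and 159.3 CPM in KT16. Its anti-PD-L1 values were 178.2 (KT19), 50.8 (KT21) and 70.0 CPM (KT23) in GFP+ and 211.2 (KT20), 139.1 (KT22) and 93.8 CPM (KT24) in GFP- libraries. Expressed as means, Hspa1a was 293.9 ± 152.8 CPM (SD, n = 3) in non-treated and 94.1 ± 36.6 CPM (SD, n = 3) in anti-PD-L1 GFP+ cells, and 296.7 ± 144.9 (SD, n = 3) and 117.8 ± 47.5 CPM (SD, n = 3) in GFP- cells. The highest library was 6.27 times the lowest for Hspa1a and 8.61 times for Hspa1b.

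**Figure D1:**
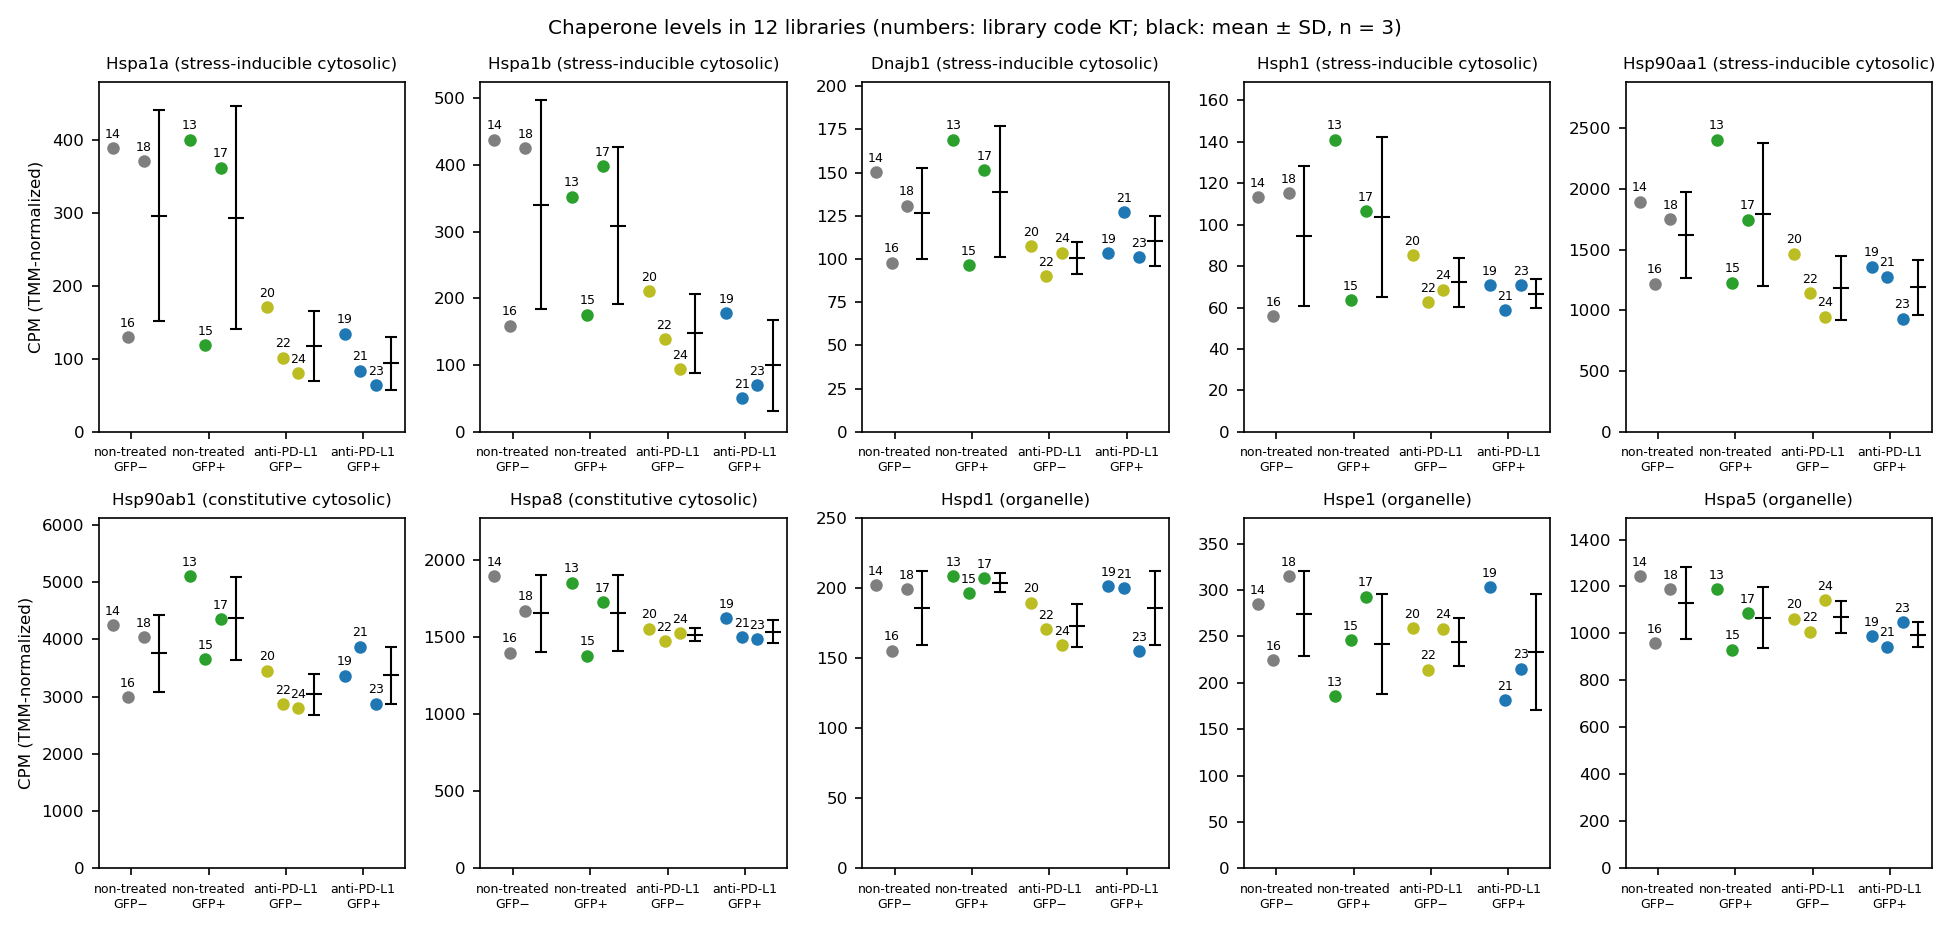
TMM-normalized CPM of each chaperone (vertical axis, from 0) in the 4 conditions (horizontal axis); each point is a library labelled by the number of its KT code, and the black bars are the mean ± SD of 3 libraries. For Hspa1a, Hspa1b, Dnajb1, Hsph1, Hsp90aa1, Hsp90ab1 and Hspa8, KT13, KT14, KT17 and KT18 sit above every anti-PD-L1 library, and KT15 and KT16 sit below these 4.

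The other 3 stress-inducible members had the same 4 high libraries over a smaller range. Dnajb1, the HSP40 co-chaperone that delivers substrates to HSP70, was 168.9, 96.4 and 151.3 CPM in the non-treated GFP+ libraries KT13, KT15 and KT17 and 150.3, 97.8 and 130.9 CPM in the non-treated GFP- libraries KT14, KT16 and KT18. It was 100.9 to 126.9 CPM in anti-PD-L1 GFP+ and 90.2 to 107.5 CPM in anti-PD-L1 GFP- libraries, the highest being KT21. Hsph1 (HSP110), a nucleotide exchange factor of HSP70, was 140.9, 63.6 and 106.5 CPM in non-treated GFP+ and 113.1, 55.7 and 115.1 CPM in non-treated GFP- libraries, in the same order of codes. After anti-PD-L1 it stayed between 58.6 and 85.1 CPM, and its lowest library of all was the non-treated KT16. Hsp90aa1, the inducible HSP90, was 2403, 1229 and 1745 CPM in non-treated GFP+ and 1895, 1218 and 1751 CPM in non-treated GFP- libraries, against 930.2 to 1466 CPM after anti-PD-L1. In each of these genes 4 non-treated libraries exceeded all 6 anti-PD-L1 libraries, and KT15 and KT16 did not.

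Among the constitutive and organelle members, Hsp90ab1 had nearly the range of Dnajb1 (highest over lowest library 1.82 against 1.87), and the other 4 had ratios of 1.34 to 1.74. Hsp90ab1, the constitutive HSP90, ranged from 2987 to 5103 CPM in non-treated and from 2798 to 3871 CPM in anti-PD-L1 libraries. Hspa8 (HSC70), the constitutive HSP70, ranged from 1379 CPM in KT15 to 1895 CPM in KT14, a ratio of 1.38, and was 1473 to 1623 CPM in anti-PD-L1 libraries. In both, KT13, KT14, KT17 and KT18 again lay above every anti-PD-L1 library, while KT15 and KT16 were the lowest of all for Hspa8 and KT21 was the highest anti-PD-L1 library for Hsp90ab1. The mitochondrial chaperonin Hspd1 (HSP60) was 155.3 to 208.4 CPM in non-treated and 155.1 to 201.5 CPM in anti-PD-L1 libraries, and its co-chaperonin Hspe1 (HSP10) 185.7 to 314.8 and 181.3 to 303 CPM, the 2 lowest libraries being KT21 and KT13. Hspa5 was 930.6 to 1243 CPM in non-treated and 943.6 to 1141 CPM in anti-PD-L1 libraries, the smallest ratio of highest to lowest among the members, 1.34, together with Hspd1 at 1.34.

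To ask whether PD-L1 blockade went with a change in these genes, anti-PD-L1 was compared with non-treated cells within each GFP group by edgeR's quasi-likelihood test over all genes. All 10 members had lower fitted levels after anti-PD-L1 in GFP+ and in GFP- cells, and 0 of 10 passed an adjusted p of 0.05 in either. Over all genes 0.0141% were called in GFP+ and 0% in GFP- cells, so that hardly any gene was called. Unadjusted p-values were under 0.05 for 4 members in GFP+ and 2 in GFP- cells, beside 6.74% and 3.44% of all genes. DESeq2, which called 0.656% and 0.233% of all genes, also called 0 members in both. The median log2 fold change of the members was -0.35 in GFP+ and -0.32 in GFP- cells, beside -0.01 over all genes in both. Hspa1a had a log2 fold change of -1.64 (SE 0.478, 95% interval -2.67 to -0.62, edgeR adjusted p = 0.394) in GFP+ and -1.33 (SE 0.473, adjusted p = 1) in GFP- cells. Hspa1b had -1.63 (SE 0.489, adjusted p = 0.426) and -1.20 (SE 0.483, adjusted p = 1). The next largest in GFP+ cells were Hsph1 at -0.64, Hsp90aa1 at -0.59, Hsp90ab1 at -0.37 and Dnajb1 at -0.33, and the 4 remaining members lay between -0.14 and -0.05. In GFP- cells Hsp90aa1 was at -0.45, Hsph1 at -0.39, Dnajb1 at -0.33 and Hsp90ab1 at -0.31, and the remaining 4 between -0.17 and -0.08.

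No member was called in either GFP group without KT13 and KT21, while 0.563% of all genes were called in GFP+ and 0.373% in GFP- cells. Hspa1a then had a log2 fold change of -1.27 (SE 0.436, edgeR adjusted p = 0.322) in GFP+ and -1.33 (SE 0.355, adjusted p = 0.170) in GFP- cells. Of the 10 members, 8 were lower after anti-PD-L1 in GFP+ cells, the exceptions being Hspa8 at 0.0026 and Hspa5 at 0.02. With no filter on low counts beyond 1 count in all, the same fit called Hspa1a and Hspa1b in both GFP groups, where 0.466% of all genes were called in GFP+ and 0.227% in GFP- cells (0.844% in the mean of both), with nearly the same fold changes but an SE of 0.202 in place of 0.478 for Hspa1a in GFP+ cells.

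**Figure D2:**
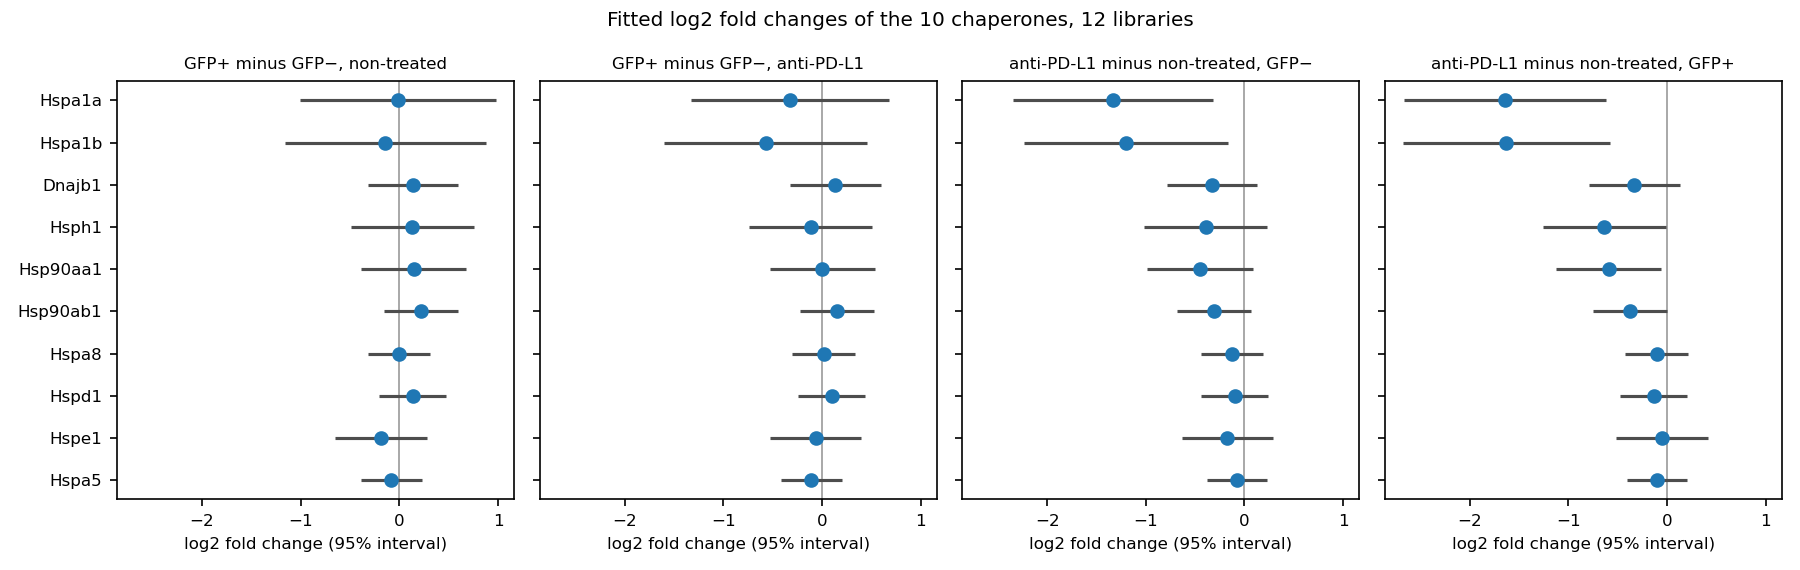
Log2 fold change (horizontal axis) of the 10 chaperones in the 4 comparisons, from the edgeR fit of all 12 libraries; points are estimates and lines 95% intervals. The intervals of Hspa1a and Hspa1b lie below 0 in both treatment comparisons and span 0 in both GFP comparisons.

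Because both GFP groups showed the members lower after treatment, the mean of the 2 treatment differences was also taken in the same fit, a comparison added after the data had been seen. Over 12 libraries edgeR called 0 of 10 members, with 0.395% of all genes called. Of the 10 members, 6 had an unadjusted p under 0.05, beside 7.67% of all genes. Hspa1a had a mean log2 fold change of -1.49 (SE 0.336, edgeR adjusted p = 0.0929). DESeq2 called Hspa1a and Hspa1b on the same 12 libraries (adjusted p = 0.0261 and 0.0481), with 1.28% of all genes called. When KT13 and KT21 were left out, edgeR called these 2 members as lower, Hspa1a at -1.30 (SE 0.282, adjusted p = 0.0155) and Hspa1b at -1.20 (SE 0.266, adjusted p = 0.0194), where 1.36% of all genes were called. Hsp90ab1 at -0.33 (SE 0.0909, adjusted p = 0.0771) and Hsp90aa1 at -0.41 (SE 0.130, adjusted p = 0.141) did not pass. This comparison treats GFP+ and GFP- libraries as separate samples, although cells of both kinds may have come from the same mice. The labels do not say, and if they did, these p-values would be too small.

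The comparison of GFP+ with GFP- cells asks whether chaperone levels went with expression of the A2AR reporter. No member was called in non-treated or in anti-PD-L1 cells, where 0.00706% and 0.0282% of all genes were called. No member had an unadjusted p under 0.05, beside 6.05% and 4.08% of all genes. In each treatment 5 members were higher and 5 lower in GFP+ cells. Fitted differences ran from -0.19 (Hspe1) to 0.22 (Hsp90ab1) in non-treated and from -0.57 (Hspa1b) to 0.15 (Hsp90ab1) in anti-PD-L1 cells. For Hspa1a the difference was -0.01 (95% interval -1.01 to 0.98) in non-treated and -0.32 (95% interval -1.32 to 0.68) in anti-PD-L1 cells. In the 10 libraries without these 2, 0.339% and 0.17% of genes were called, and again 0 of 10 members. The split was then 8 lower and 2 higher in non-treated cells and stayed 5 and 5 in anti-PD-L1 cells, and with 1 library left out 1 to 8 members were lower in non-treated cells. The interaction, which asks whether the treatment difference was unlike in GFP+ and GFP- cells, called 0 of 10 members and 0% of genes over 12 libraries, and 0% without the 2 libraries. It was -0.31 (SE 0.659) for Hspa1a and -0.43 (SE 0.674) for Hspa1b on the log2 scale, each with an edgeR adjusted p of 0.9999. DESeq2 called 0 members in these 3 comparisons, with 0.374%, 0.332% and 0% of genes called. The treatment and GFP comparisons use the same libraries, so they are not independent of each other. The labels do not say whether GFP+ and GFP- cells came from the same mice. If they did, these unpaired GFP tests would leave the spread between mouse pools in the error. A lack of calls would then say less about small differences.

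Set side by side within a library, the mean of the stress-inducible genes swung further than that of the constitutive ones. Hspa1a and Hspa1b had the widest ranges of the 5 inducible genes. That of Dnajb1 (highest over lowest library 1.87) was near that of Hsp90ab1 (1.82). The mean of the 5 inducible genes, each as log2(CPM + 0.5) centred on its mean over the 12 libraries, ran from -0.74 (KT23) to 0.88 (KT13), that of the 2 constitutive genes from -0.22 to 0.37 and that of the 3 organelle genes from -0.18 to 0.21. The inducible mean was 0.88, 0.76, 0.68 and 0.69 in KT13, KT14, KT17 and KT18, but -0.26 in KT15 and -0.30 in KT16. Among anti-PD-L1 libraries it was above 0 only in KT20, at 0.07. The log2 ratio of Hspa1a plus Hspa1b to Hspa8 in the same library, which does not depend on the normalization between libraries, was -1.07 to -1.30 in the 4 high non-treated libraries, -2.23 and -2.28 in KT15 and KT16, and -2.02 to -3.48 after anti-PD-L1. The ratio of Hsp90aa1 to Hsp90ab1 had a narrower range, from -1.63 in KT23 to -1.09 in KT13, and the ratios of Dnajb1 to Hspa8 ran from -4.03 in KT22 to -3.46 in KT13. These ratios compare libraries. Since reads come from 3′ ends, they are not ratios of protein or of molecules. The ratios to Hspa8 also leave out reads counted on its pseudogenes, copies elsewhere in the genome that are described below. These copies took 32.2% of the counts of gene and copies in KT13 and 28.4% in KT21, but 50.9% to 54.5% in the other libraries. Ratios to Hspa8 in KT13 and KT21, and the constitutive mean that includes Hspa8, are therefore not on the same footing as in the rest.

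**Figure D3:**
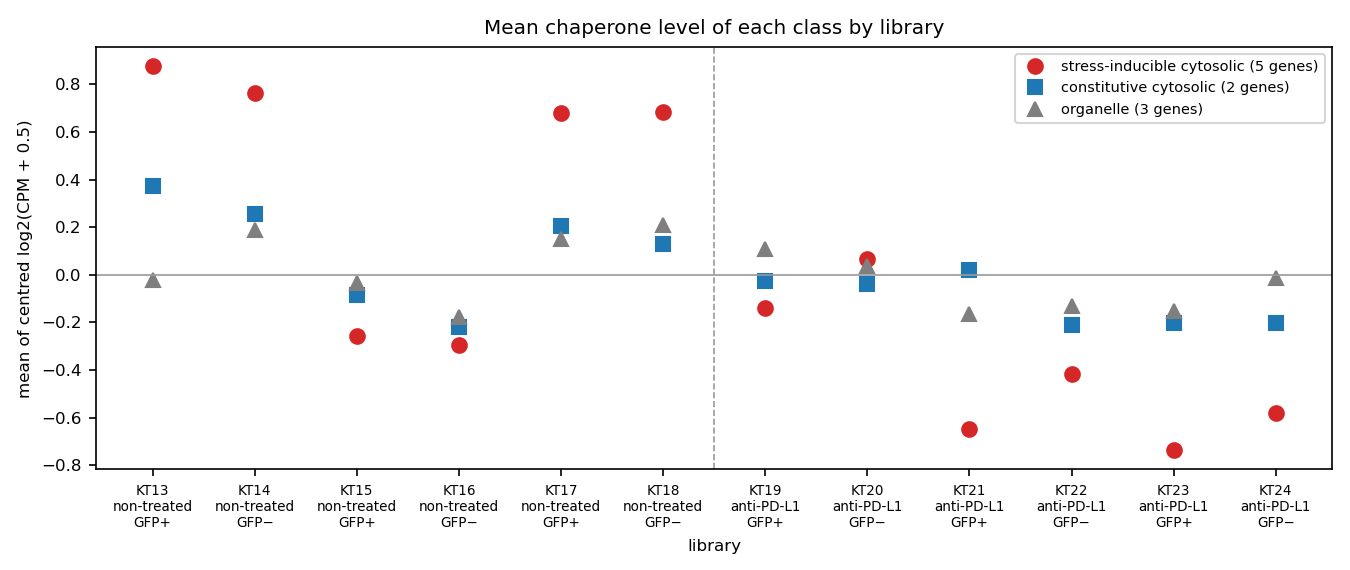
Mean of centred log2(CPM + 0.5) (vertical axis) of the stress-inducible cytosolic, constitutive cytosolic and organelle chaperones in each library (horizontal axis, in order of code); the dashed line separates non-treated from anti-PD-L1 libraries. Inducible genes are high in KT13, KT14, KT17 and KT18 and below 0 in KT15, KT16 and every anti-PD-L1 library other than KT20, while the other classes stay between -0.22 and 0.37.

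Libraries with neighbouring codes had close chaperone levels. Codes run in neighbours of 1 GFP+ and 1 GFP- library of the same treatment, KT13 with KT14, KT15 with KT16 and so on. The median difference of Hspa1a within these 6 neighbours was 0.20 on the log2 scale, against 0.89 in the other 12 pairs of a GFP+ with a GFP- library of the same treatment. For Hsp90aa1 the medians were 0.07 and 0.48, for Hspa8 0.03 and 0.14, and for Hspa5 0.10 and 0.19. Hspe1, which was low in KT13 and KT21, had medians of 0.23 and 0.31. Hspa5 was lower in the GFP+ library of all 6 neighbours, Hspa1a and Hspa1b in 5 of 6 each and Hspe1 in 4. Dnajb1, Hsph1, Hsp90aa1 and Hspa8 were lower there in 3 of 6 each, and Hsp90ab1 and Hspd1 in only 1 of 6 each. These counts were taken after the values were seen and were not tested. The labels do not say that neighbouring codes share mice, a sort or a preparation, so no pairing was used in the tests, and mouse pool, day and preparation cannot be told apart here.

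The spread between libraries of the same condition was highest for Hspa1a and Hspa1b and did not divide the other members by class. The biological coefficient of variation that edgeR estimated was 40.1% for Hspa1a and 41.0% for Hspa1b, above the median of 27.4% over all genes, and lay above 68.5% and 69.3% of genes. It was 26.3% for Hsph1, 23.8% for Hsp90aa1 and 20.6% for Dnajb1, all below that median, and 21.0% for the organelle gene Hspe1. The 4 members with the smallest spread, Hspa5 (16.3%), Hspa8 (16.7%), Hspd1 (16.8%) and Hsp90ab1 (18.6%) lay above 6.04%, 7.92%, 8.93% and 18.5% of genes. These estimates are drawn towards the values of genes of like abundance. The unmodelled SD of log2(CPM + 0.5) within conditions was 0.77 for Hspa1a and 0.76 for Hspa1b, against 0.15 for Hspa5 and 0.16 for Hspa8. In the other 10 libraries alone it was 0.82 for Hspa1a and 0.14 for Hspa5, so the contrast did not rest on these libraries.

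Chaperones of all 3 classes share stretches with processed pseudogenes, inserted copies of their messenger RNA elsewhere in the genome, and this touches their counts. In the last 400 bases of their annotated transcripts, 5 members held stretches of 75 bases, the read length, that also occur in transcripts of other annotated genes, namely Hspa8 (68.1% of stretches), Hspe1 (41.7%), Hsp90aa1 (25.6%), Hspd1 (24.2%) and Hsp90ab1 (0.797%). Hspa1a, Hspa1b, Dnajb1, Hsph1 and Hspa5 held none. For Hspa8, 7 pseudogenes with such stretches are in the count table, above all Gm15459 and Gm8355, and they took 50.9% to 54.5% of the counts of gene and pseudogenes together in 10 libraries, but 32.2% in KT13 and 28.4% in KT21. For Hsp90aa1, Gm12346 and Gm5844 took 47.2% to 49.9% in all 12 libraries. The share for Hspe1 was 5.80% to 10.1% in 10 libraries and 0.761% and 1.03% in KT13 and KT21. It counts Hspe1-ps2 alone, which held 1.23% of the Hspe1 stretches. The other gene sharing such stretches was not in the count table. How reads with several matches were counted was not given in the sources used here, and which copy gave rise to them cannot be told from the counts.

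**Figure D4:**
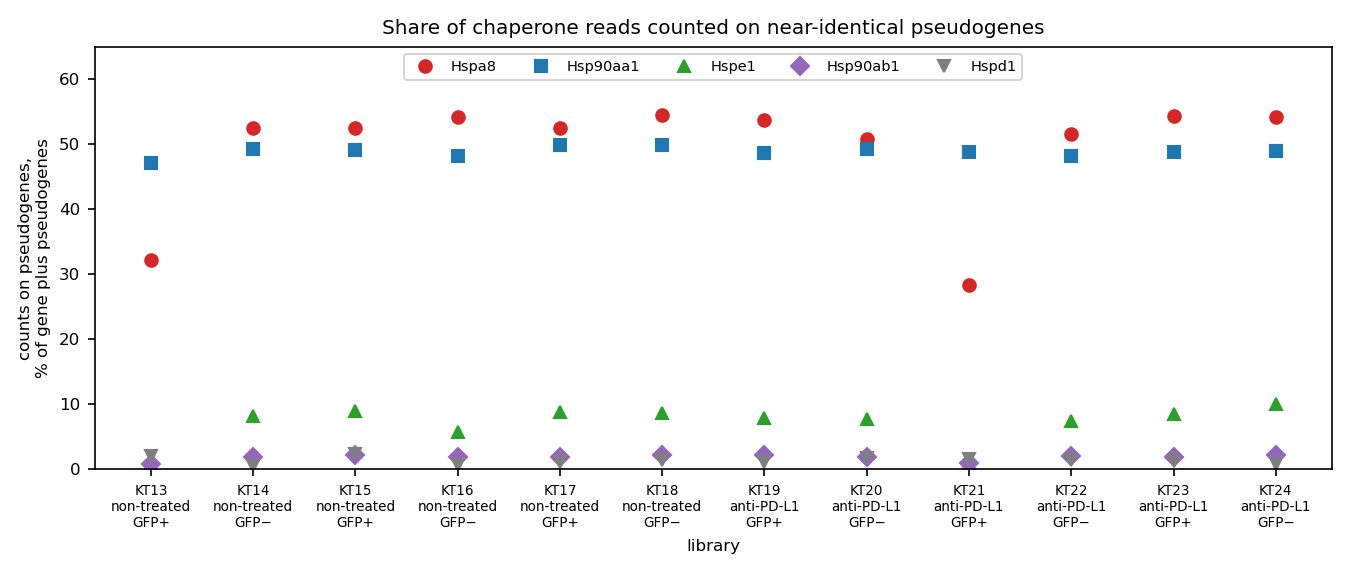
Counts assigned to pseudogenes that share 75-base stretches with a chaperone's 3′ end, as a percent of counts of gene and pseudogenes together (vertical axis), in each library (horizontal axis). For Hspa8 KT13 and KT21 lie at 32.2% and 28.4%, far below the 50.9% to 54.5% of the other 10 libraries, whereas Hsp90aa1 stays between 47.2% and 49.9%.

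With these counts added to the gene, Hspa8 ranged from 2092 CPM in KT21 to 3987 CPM in KT14, a ratio of 1.91 in place of 1.38, and KT13 went from the second highest of the 12 libraries to the second lowest, at 2736 CPM. KT13 and KT21 thus differed from the others in how reads were divided between copies. Along the whole transcript Hspa1a and Hspa1b share 52.7% and 55.8% of their 75-base stretches with each other, though none in the last 400 bases, and the split between them also differed in these libraries. Hspa1a made up 53.2% of the pair in KT13 and 62.2% in KT21 but 40.4% to 47.7% in the other 10. The log2 ratio of Hspd1 to Hspe1 was 0.17 in KT13 and 0.14 in KT21 and lay between -0.70 and -0.33 in the other 10. For no member did adding the pseudogene counts bring a call in the 4 comparisons or the interaction.

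Markers of other cells moved with treatment beside the chaperones. The 9 macrophage and monocyte markers summed to 153.5 to 281.4 CPM in non-treated and 77.5 to 164.6 CPM in anti-PD-L1 libraries, and the 4 fibroblast markers to 4.35 to 64.3 and 0.214 to 12.2 CPM. Within the non-treated libraries the macrophage sum was highest in KT15 (281.4 CPM), which had the lowest Hspa1a of the 6, and the fibroblast sum in KT15 (64.3 CPM) and KT16 (42.1 CPM). The 5 tumor or epithelial markers summed to 15.1 to 32.3 CPM in non-treated and 7.91 to 20.3 CPM in anti-PD-L1 libraries. The 4 of them that were tested summed to 32.0, 31.8 and 29.8 CPM in KT13, KT17 and KT18, where Hspa1a was high, but to 15.1 CPM in KT14, where it was also high. Pecam1, an endothelial marker, was highest in KT13 (24.3 CPM) and KT17 (22.2 CPM). The other marker of that list, Cdh5, was 0 CPM in both and at most 0.322 CPM, in KT19. The 3 NK cell markers differed between the GFP groups, with sums of 74.45 to 79.48 CPM in non-treated GFP+ and 39.14 to 55.2 CPM in non-treated GFP- libraries. After anti-PD-L1 the sums were 63.54 to 69.46 CPM in GFP+ and 25.45 to 28.39 CPM in GFP- libraries. Neutrophil and dendritic cell markers summed to at most 2.76 and 1.39 CPM, with Csf3r at 0 in 11 libraries. The CD8 T cell sum was itself 3867 to 4643 CPM in non-treated and 4633 to 6015 CPM in anti-PD-L1 libraries. The part of these differences in the chaperone counts was not tested, and in sorted bulk samples fewer cells with a transcript and less of it per cell cannot be told apart.

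Other genes of protein folding, from lists written from general knowledge, had median differences near that of all genes. Of 36 tested HSF1-related genes and HSP co-chaperones, 0 were called in the GFP or treatment comparisons over 12 libraries, and their median log2 fold change was -0.01 in GFP+ and -0.04 in GFP- cells after anti-PD-L1. The same count was 0 of 8 for TRiC, the cytosolic chaperonin of actin and tubulin (medians 0.04 and -0.05), 0 of 14 for mitochondrial protein folding (-0.04 and -0.06) and 0 of 27 for endoplasmic reticulum folding and the unfolded protein response (-0.08 and 0.04). All 4 counts were also 0 without KT13 and KT21. In the mean of both treatment differences, 1 co-chaperone passed without KT13 and KT21, Hspb1, the small heat shock protein HSP27. It was 3.26 to 13.3 CPM (median 6.33) in anti-PD-L1 and 8.74 to 14.6 CPM (median 10.5) in non-treated libraries, with KT21 the one anti-PD-L1 library among the high values. Its log2 difference was -1.11 (SE 0.232, edgeR adjusted p = 0.0107) in 10 libraries and -0.71 (SE 0.289, adjusted p = 0.562) in 12.

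Immediate-early genes, a group that is also induced when tissue is dissociated, held 1 gene that was called. Klf2, a transcription factor of T cell quiescence and egress from tissue, was 278 to 599.1 CPM (median 438) in non-treated and 182.8 to 255.2 CPM (median 219) in anti-PD-L1 libraries, which did not overlap. It was lower in the mean of both treatment differences (log2 difference -0.96, SE 0.170, edgeR adjusted p = 0.0239), and without KT13 and KT21 also in GFP+ cells (-0.89, SE 0.204, adjusted p = 0.0441). Of the 18 genes of the list, 15 had lower fitted levels after anti-PD-L1 in GFP+ and 14 in GFP- cells. Of all genes, 50.8% were lower in each. The list medians were -0.21 and -0.12, and 0 of its genes were called over 12 libraries in either. Without KT13 and KT21, 10 of the 18 were lower in GFP+ cells (median -0.07) and 14 in GFP- cells (median -0.12). Their part in the chaperone result was not tested.

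The genes whose levels were most like the mean of the 5 stress-inducible members over the 12 libraries were Gm5844 (Pearson r = 0.983), Klf2 (0.950), Jun (0.938), Klf4 (0.909) and Oasl2 (0.901). Gm5844 is a pseudogene of Hsp90aa1 and holds 18.5% of the 75-base stretches of its 3′ ends. How far its likeness comes from reads of Hsp90aa1, itself in the mean, cannot be told from the counts. Without KT13 and KT21 the genes most alike were Gm5844 (0.987), Gm12346 (0.977), Oasl1 (0.938), Klf2 (0.932) and Jun (0.929). Among the members outside the class, r over 12 libraries was 0.847 for Hspa8, 0.833 for Hsp90ab1, 0.698 for Hspa5, 0.690 for Hspd1 and 0.394 for Hspe1. Jun, a component of the AP-1 transcription factor, was 224.9, 233.1, 221.1 and 215.3 CPM in KT13, KT14, KT17 and KT18, and 107.2 to 163.2 CPM in the other 8 libraries. These correlations run over 6 non-treated and 6 anti-PD-L1 libraries, so that any difference between treatments enters them, and they were not tested.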

How the data were processed

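Libraries were made from sorted CD8+ tumor-infiltrating cells with the QuantSeq 3′ kit and read as 75-base single reads. The authors deposited raw counts per gene, made per the labels with cutadapt 1.7, HISAT2 and featureCounts of Subread 1.6.4 on mm10. How strand and reads with several matches were treated was not given in the sources used here. Groups were taken from the labels. Genes were kept by edgeR's filterByExpr with the 4 conditions (14173 genes in 12 libraries, 14747 in 10), counts were scaled by TMM, and each comparison was tested with edgeR 4.0.16 (R 4.3.3) by the quasi-likelihood test in 1 fit of all conditions, with Benjamini-Hochberg adjustment over all genes and a threshold of 0.05. Levels are TMM-normalized CPM, and log2 levels carry a pseudocount of 0.5. DESeq2 1.42.0, other scalings, other filters and the omission of each library were alternatives. Of 52636 identifiers, 52403 were matched to a symbol. Promoter windows were from RefSeq (GRCm38.p6). The fit was tested on simulated data. The named genes were the 10 members and, by rule, the genes most like the inducible mean and list genes that were called. Members and lists were chosen with earlier results of these data known. No 2 libraries of the same condition were copies of each other, since the smallest chi-square per degree of freedom between them was 11.9. Libraries of different conditions were not compared in this way. The labels do not say that libraries of a condition came from separate experiments, so p-values measure the spread between these pools.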

Additional observations from a re-analysis of the deposited data

How the results depend on the processing

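No paired analysis was possible because the labels give the groups no shared replicate numbers, and a fit blocked on neighbouring codes, which no label pairs, was not run. The count of called members moved from 0 to 2 in the GFP+ and GFP- treatment comparisons without a filter beyond 1 count in all. It moved to 3 in the mean of both. Of all genes 0.466% were then called in GFP+, 0.227% in GFP- and 0.844% in the mean. In the mean of both the count also moved to 2 without KT13 and KT21 (1.36% of all genes) and to 2 by DESeq2 (1.28%). It was 0 to 1 when 1 library was left out. The count was 1 without KT15 (44 of 14637 genes called), KT16 (40 of 14731) or KT19 (51 of 14742). Without KT13 and KT21 the coefficient of variation was 15.2% for Hsp90aa1, 11.7% for Hsp90ab1, 10.8% for Hspa8, 12.5% for Hspe1 and 10.4% for Hspa5. The non-treated GFP difference of Hspa1a reversed to 0.0193 with upper-quartile factors and 0.0046 with at least 10 counts in every library. With both libraries left out, the GFP+ treatment difference reversed to 0.0026 for Hspa8 and 0.0174 for Hspa5, and the interaction to 0.0566 for Hspa1a. Leaving out 1 library gave -0.38 to 0.36 (Hspa1a) and -0.49 to 0.14 (Hspa1b) for GFP in non-treated cells, -0.68 to 0.0668 (Hspa1a) for GFP after anti-PD-L1, -0.28 to 0.11 (Hspe1) for treatment in GFP+ cells and -0.69 to 0.0786 (Hspa1a) for the interaction. Under the same omissions the treatment difference of Hspa1a stayed negative, at -2.02 to -1.35 in GFP+ and -1.70 to -1.09 in GFP- cells. The causes of these moves were not tested. Each condition had 3 libraries, and KT13 and KT21 stood apart. In the main edgeR fit of all 12 libraries no member passed the adjusted threshold. For Dnajb1 and Hsp90ab1 the unadjusted 95% intervals of the mean of both treatment differences were then -0.655 to -0.006 and -0.605 to -0.075. Without KT13 and KT21 these 2 members did not pass either in that mean (edgeR adjusted p = 0.322 and 0.0771).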
